A study of Homo sapiens with 4 samples.

Results

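The 10 genes described here encode parts of the sarcomere, the contractile unit of striated muscle, and were measured in human skin fibroblasts: TTN, NEB, NEBL, MYPN, MYH2, MYH3, TCAP, LDB3, MYOM1 and XIRP1. They were chosen by symbol, with their values in the comparison of Dox with control already known, and all 10 were found among the 58825 genes of the deposited tables. Their counts, levels and fold changes are therefore given as a description, with no p-value. The 4 libraries hold total RNA of BJ cells, an established fibroblast line from human skin. The 2 control libraries received the solvent DMSO and carry the word young in their titles, and the 2 Dox libraries were exposed to Dox, an abbreviation in the labels, at 250 nM and carry the word aged. Exposure lasted 24 hours and was followed by a senescence period of 10 days. The design text gives this schedule for DMSO and Dox alike, and the titles alone call the controls young, so exposure and age cannot be told apart. All 4 libraries come from a single line, and the labels do not state whether each replicate was its own culture. The p-values below therefore rest on a spread between samples that may be technical. Expected counts, the reads that the authors' software assigned to each gene, summed to between 42744724 and 47798921 per library.

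A sarcomere is built from thick filaments of myosin and thin filaments of actin that slide past each other. The thin filaments are anchored at the Z-disc and the thick filaments are held together at the M-band. Titin runs from the Z-disc to the M-band as a molecular spring, and nebulin runs along the thin filament. Fibroblasts have no sarcomeres, but they build stress fibres and focal contacts from related proteins. In a bulk sample, fewer cells that express a gene and less RNA per cell cannot be told apart.

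TTN encodes titin (ENSG00000155657, chromosome 2, 178525989 to 178830802 on the minus strand of GRCh38, a span of 304814 bases). Control replicates 1 and 2 had 1 and 0 titin counts, and Dox replicates 1 and 2 had 223 and 203. Both Dox libraries thus lay far above the controls, which held a single read between them. In CPM, counts scaled to library size with the TMM factors of edgeR, the level was 0.0120 ± 0.0169 in control and 4.84 ± 0.522 in Dox (SD, n = 2 each). Scaled by library size, the summed counts stood in a ratio of 428, and the exact 95% interval of 76.5 to 16957 covers counting error only. The fitted log2 fold change of edgeR was 8.42, but with 1 control count it moves with that count: it was 10.76 without control replicate 1 and 7.49 without control replicate 2.

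NEB encodes nebulin, the actin-binding ruler of the skeletal muscle thin filament (ENSG00000183091, chromosome 2, 151485336 to 151734487, minus strand). Its counts were 7 and 8 in control and 86 and 88 in Dox. The level went from 0.169 ± 0.00207 CPM in control to 1.98 ± 0.0501 CPM in Dox (SD, n = 2 each), a log2 fold change of 3.52 (SE 0.26), and the replicates of each group lay close together. NEBL encodes nebulette, the short relative of nebulin in cardiac Z-discs (ENSG00000078114, chromosome 10, 20779973 to 21174187, minus strand). It was near the limit of detection, with 0 and 1 counts in control and 12 and 15 in Dox, and the scaled ratio was 27.1 (exact 95% counting interval 4.47 to 1111). Its log2 fold change of 4.45 (SE 0.76) moved to 3.67 when control replicate 1 was left out and to 6.74 when control replicate 2 was, and NEBL was not tested without Dox replicate 2.

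MYPN encodes myopalladin, which links nebulin to alpha-actinin at the Z-disc (ENSG00000138347, chromosome 10, 68106117 to 68212017, plus strand). It was the best measured of the 4 genes that were higher in Dox. Its counts were 199 and 184 in control and 1480 and 1592 in Dox, or 4.35 ± 0.596 CPM against 34.8 ± 0.348 CPM (SD, n = 2 each). The log2 fold change was 3.01 (SE 0.12), which is 8.03-fold.

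**Figure D1:**
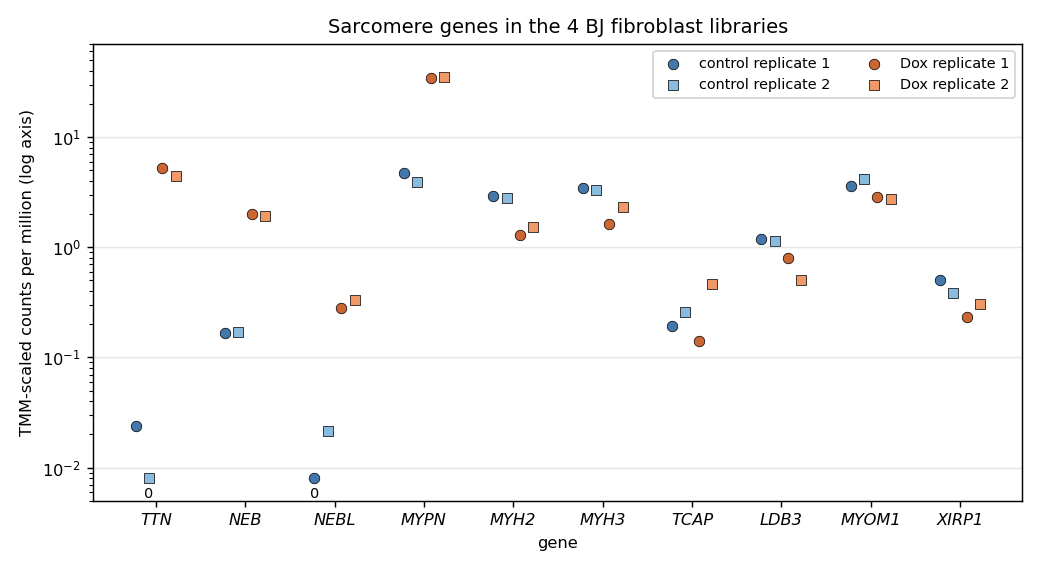
TMM-scaled CPM on a log axis for each of the 10 genes, with 1 point per library (blue control, orange Dox, circles replicate 1, squares replicate 2). The 4 genes on the left, TTN, NEB, NEBL and MYPN, lie higher in both Dox libraries, with MYPN at 34.6 and 35.1 CPM. The 2 points marked 0 are libraries with no count.

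All 10 genes passed the filter on low counts. TTN, NEB and NEBL passed it only through the Dox libraries, so that they had to differ to be kept. At an adjusted p under 0.05 by edgeR's quasi-likelihood test, 4 members were called higher, against 16.5% of the 16736 genes tested. Under the same rule 2 members, MYH2 and MYH3, were called lower, against 13.8% of genes tested, and 30.3% of genes were called in either direction. With a correction for GC content the calls over all genes were 3213 higher and 4842 lower, in place of 2761 and 2306. These calls are no test of the members, which were chosen on this contrast, and nothing is read from them. On the CPM scale, 4 members were higher and 5 were lower in both Dox libraries than in both control libraries, against 34.6% and 34.5% of genes tested. TCAP alone overlapped between the groups.

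The stretches just before the start sites of TTN, NEB and MYPN are shown because these 3 genes were higher together. Each is the 250 bases upstream of a RefSeq start (GRCh38.p14), 5′ to 3′ on the gene's strand, with matches to the searched motifs in capitals. The TTN window lies at chr2:178807424-178807673 (minus strand), the NEB window at chr2:151734477-151734726 (minus strand) and the MYPN window at chr10:68109238-68109487 (plus strand). The TTN and MYPN windows lie inside the spans given above for these genes, so other annotated starts lie further upstream. Which start the cells used was not tested.
TTN: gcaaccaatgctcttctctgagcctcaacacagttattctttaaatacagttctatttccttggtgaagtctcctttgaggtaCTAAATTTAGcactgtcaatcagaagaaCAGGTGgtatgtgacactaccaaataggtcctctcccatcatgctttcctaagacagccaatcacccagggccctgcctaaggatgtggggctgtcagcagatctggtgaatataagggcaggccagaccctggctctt
NEB: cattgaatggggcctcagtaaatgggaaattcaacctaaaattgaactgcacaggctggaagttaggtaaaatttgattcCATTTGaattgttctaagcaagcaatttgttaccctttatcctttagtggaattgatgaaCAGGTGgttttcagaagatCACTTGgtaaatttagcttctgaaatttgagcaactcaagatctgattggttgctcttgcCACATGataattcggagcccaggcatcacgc
MYPN: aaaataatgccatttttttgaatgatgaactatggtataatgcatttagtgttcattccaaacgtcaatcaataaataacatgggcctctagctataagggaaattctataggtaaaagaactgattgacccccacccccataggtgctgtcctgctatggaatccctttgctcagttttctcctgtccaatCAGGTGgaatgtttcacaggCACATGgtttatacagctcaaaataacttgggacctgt

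The motifs searched on both strands were the E-box CANNTG, which muscle and other helix-loop-helix factors bind, the AP-1 site TGANTCA, the MEF2 element and the CArG box of serum response factor. The TTN window held the MEF2 element CTAAATTTAG, beginning 167 bases before the start site, an element that 2.8% of all 35116 windows of this length held. The XIRP1 window held a MEF2 element as well, at 111 bases. The TTN window also held 1 E-box, against 4 in the NEB window and 2 in the MYPN window, and E-boxes occurred in 61.8% of all windows. Among the other members, the XIRP1 window held 2 and the MYH2 and MYOM1 windows 1 each. The NEBL windows held 0 to 2 and the LDB3 windows 0. The E-box form CAGGTG, singled out after it was seen, stood in the TTN, NEB and MYPN windows and, on either strand, in 2 of the 5 NEBL windows, but in none of the windows of MYH2, MYOM1, LDB3 and XIRP1. Across all windows it occurred in 17.5%. The CArG box, held by 1.16% of windows, was found for LDB3 and MYOM1. TGANTCA was found for LDB3, XIRP1 and 1 NEBL start, against 6.57% of windows. Of the 10 genes, 8 had a RefSeq window, and those without one were MYH3 and TCAP. A match is a string of letters and not a measured binding site.

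The myosin heavy chains are the motors of the thick filament. MYH2, the fast 2A chain of adult skeletal muscle (ENSG00000125414, chromosome 17, 10521148 to 10549957, minus strand), had 121 and 130 counts in control and 55 and 69 in Dox. That is 2.84 ± 0.0893 CPM against 1.40 ± 0.166 CPM (SD, n = 2 each), with a log2 fold change of -1.01 (SE 0.18). MYH3, the embryonic chain (ENSG00000109063, chromosome 17, 10628526 to 10657309, minus strand), had 145 and 155 counts in control and 70 and 106 in Dox. Its log2 fold change was -0.77 (SE 0.21), and it moved to -1.05 when Dox replicate 2 was left out and to -0.55 when Dox replicate 1 was. Both Dox libraries were below both controls for each of the 2 chains, with the Dox libraries of MYH3 further apart than those of MYH2.

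MYOM1 encodes myomesin, which cross-links titin and myosin at the M-band (ENSG00000101605, chromosome 18, 3066807 to 3220108, minus strand). It had 151 and 197 counts in control and 122 and 125 in Dox, a log2 fold change of -0.48 (SE 0.16). LDB3 encodes the Z-disc protein ZASP, which binds alpha-actinin (ENSG00000122367, chromosome 10, 86668449 to 86736068, plus strand). Its counts were 50 and 54 in control and 34 and 23 in Dox, with a log2 fold change of -0.85 (SE 0.28) that moved to -1.22 when Dox replicate 1 was left out and to -0.57 when Dox replicate 2 was. XIRP1 encodes an actin-binding repeat protein of muscle attachment sites (ENSG00000168334, chromosome 3, 39183210 to 39192596, minus strand). It had 21 and 18 counts in control and 10 and 14 in Dox, and the scaled ratio was 0.619 (exact 95% counting interval 0.356 to 1.055, which includes equal levels).

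TCAP encodes telethonin, which caps the ends of titin pairs in the Z-disc (ENSG00000173991, chromosome 17, 39664187 to 39666555, plus strand). Its counts were 8 and 12 in control and 6 and 21 in Dox. The Dox libraries thus lay on either side of the controls, and the log2 fold change of 0.43 (SE 0.60) became -0.68 without Dox replicate 2. No direction can be given for TCAP, in contrast to its partner TTN.

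**Figure D2:**
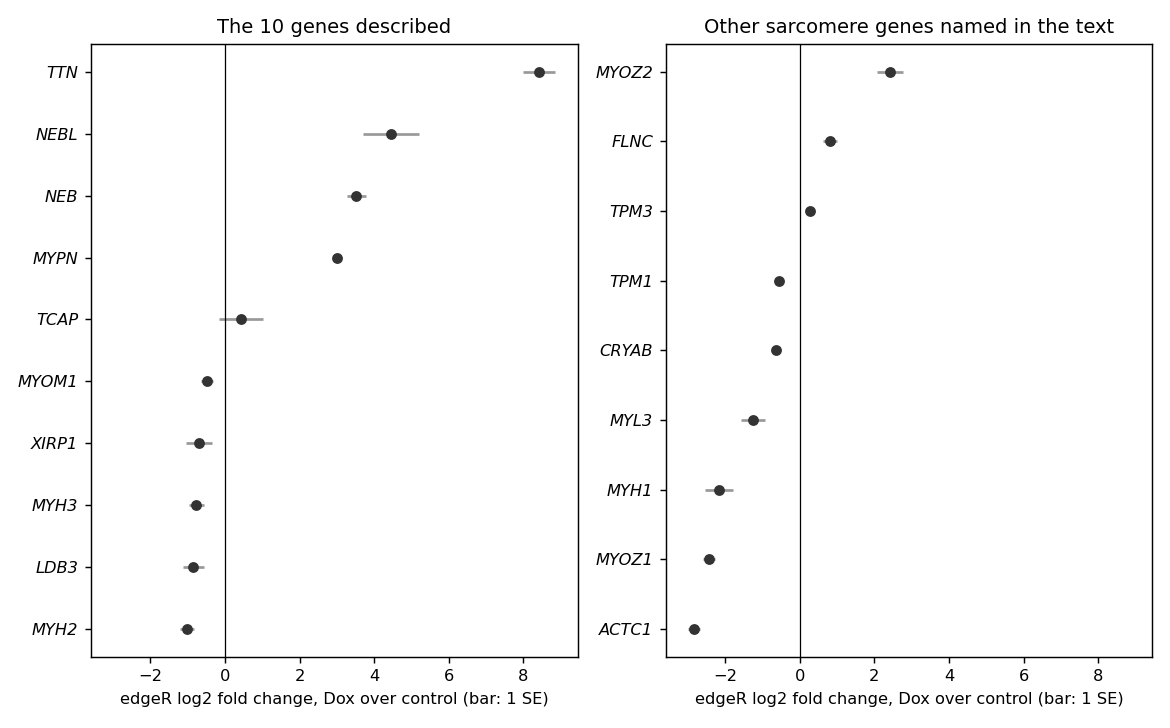
The edgeR log2 fold change of Dox over control with bars of 1 SE, for the 10 genes described (left) and for the 9 other sarcomere genes named in the text (right), which all passed the test. TTN at 8.42 lies farthest to the right, NEBL, NEB and MYPN follow at 4.45, 3.52 and 3.01, and in the right panel MYOZ2, FLNC and TPM3 lie above 0 and the others below.

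The deposited tables also give a length for each gene, the mean over its transcripts weighted by their estimated abundance, which describes which annotated forms the reads were assigned to. In GENCODE 29, TTN has 17 transcripts of 519 to 109224 bases. The weighted length of TTN was 30654 bases in Dox replicate 1 and 45022 in Dox replicate 2. Both values lie between the 18218-base transcript TTN-204 and the group of 7 longest transcripts, which begins at 81156 bases, and neither matches the length of an annotated form. In control replicate 1, with its lone read, the length was 18218 bases, that of TTN-204. In control replicate 2, which had no titin read, the listed 40695 bases is the plain mean of the 17 transcripts and carries no information.

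For NEB, with 20 transcripts of 353 to 26307 bases, the weighted length was 3767 bases in Dox replicate 1 and 9060 in Dox replicate 2, and 10371 and 18420 bases in control. The Dox libraries therefore weighted shorter nebulin forms than the controls did, although the control values rest on 7 and 8 counts. MYPN was stable, at 5666 and 5324 bases in control and 5285 and 5277 in Dox, near the lengths of its longer transcripts, which reach 6116 bases. NEBL in Dox had 3779 and 3687 bases against a longest transcript of 9216. MYH2 stayed between 5461 and 5875 bases in all 4 libraries, close to its full-length forms of 6078 and 6339 bases. MYH3, by contrast, stayed between 2596 and 3125 bases, between its single coding transcript of 6037 bases and its retained-intron forms of 480 to 609 bases. TCAP was at 2123 bases, the length of TCAP-201, in 3 libraries.

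**Figure D3:**
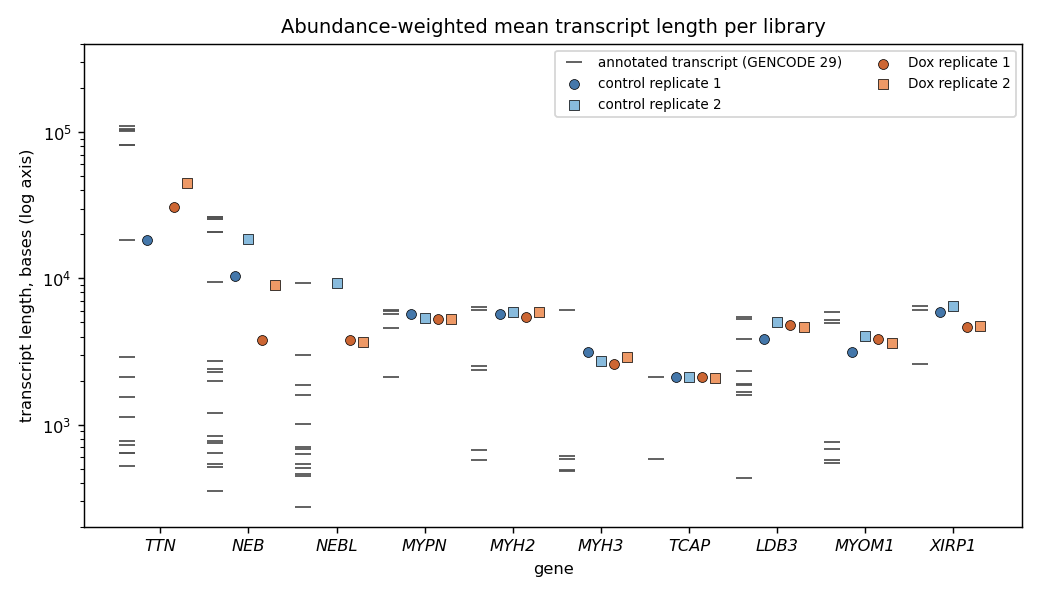
Abundance-weighted mean transcript length in bases (log axis) of each gene in each library that held at least 1 count, beside the lengths of its annotated transcripts (grey dashes). The TTN points for Dox, 30654 and 45022 bases, lie between annotated lengths, while the 4 MYPN points lie together between 5277 and 5666 bases.

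Levels can be compared between genes only per length, here as CPM per kilobase of effective length. In control, MYH3 (1.18 and 1.30) and MYOM1 (1.23 and 1.09) were highest and overlapped. MYPN followed at 0.871 and 0.764, then MYH2 at 0.530 and 0.488. LDB3 stood at 0.326 and 0.239, with TCAP at 0.0992 and 0.132 and XIRP1 at 0.0886 and 0.0612. NEB (0.0165 and 0.00936), NEBL (0 and 0.00236) and TTN (0.00133 and 0) were lowest, and NEBL and TTN overlapped. In Dox, MYPN led at 6.80 and 6.90. Next came MYH3 (0.682 and 0.863) and MYOM1 (0.776 and 0.811), which again overlapped. NEB, at 0.563 and 0.219, overlapped MYH2 (0.244 and 0.269) and TCAP (0.0729 and 0.247). TTN, at 0.171 and 0.0998, overlapped LDB3 (0.174 and 0.113), and NEBL (0.0783 and 0.0947) lay within the spread of TCAP and above XIRP1 (0.0524 and 0.0687). Per length, titin in Dox was thus at the level of LDB3 and far below MYPN, although its counts came to more than 200 in each library.

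The deposited TPM values, which are scaled by length and to a fixed total per library, were at most 2.74 for any of the 10 genes, and TTN stood at 0.04 in both Dox libraries and 0 in both controls. On this scale MYPN was 0.24 and 0.22 in control and 1.68 and 2.74 in Dox, so that the Dox libraries differed more than in CPM. The groups of MYH3 (0.33 and 0.37 against 0.17 and 0.34), MYOM1 (0.34 and 0.31 against 0.19 and 0.32), XIRP1 and TCAP overlapped in TPM, whereas only TCAP overlapped in CPM. Among all tested genes, 36.0% had groups that did not overlap in TPM, against 69.1% in CPM. The deposited FPKM values, whose library sum sets the step from FPKM to TPM, summed to 4045835 in Dox replicate 1 and 2635272 in Dox replicate 2, against 3488187 and 3410858 in control.

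Several genes share sequence with the 10, and the sources used here do not say whether strand was used in counting. TTN overlaps the antisense gene TTN-AS1, whose exon bases lie on TTN exons of the other strand for 55.1% of their length. TTN-AS1 had 601 and 693 counts in control and 533 and 558 in Dox, with a log2 fold change of -0.24 (SE 0.09) that did not pass the test. The control libraries thus held many reads on TTN-AS1 while TTN had 1 and 0. The 6 further genes of the other strand inside TTN that were tested had log2 fold changes of -0.31 to 0.00, and by edgeR 0 of them passed the test, 0 also at an unadjusted p under 0.05 and 0 by DESeq2. CCDC141, on the same strand and overlapping the upstream end of TTN by 138 exon bases, had 0 and 0 counts in control and 9 and 5 in Dox. Of the 50-base stretches of TTN transcripts, 12.25% also occur in transcripts of other genes on either strand, mostly in TTN-AS1.

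NEB overlaps RIF1, an abundant DNA repair gene on the other strand, by 166 exon bases, and 0.166% of its 50-base stretches are shared. RIF1 had 3950 and 4290 counts in control and 5175 and 4498 in Dox and did not pass the test (log2 fold change 0.24, SE 0.11). MYPN shared 0.0421% of its stretches with other genes, and TCAP and XIRP1 shared none. MYH2 shared 18.65%, chiefly with its neighbour MYH1, and MYH3 shared 4.66%, so the split of reads among the myosin genes is less certain than the values of NEB and MYPN.

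**Figure D4:**
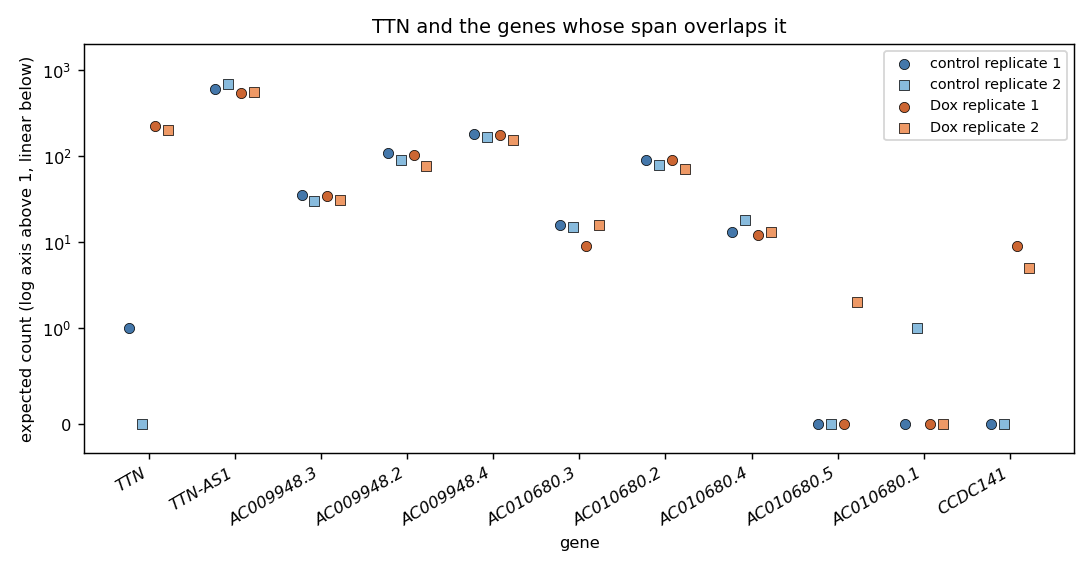
Expected counts of TTN and of the genes whose annotated span overlaps it, per library, on an axis that is logarithmic above 1 and linear below. TTN goes from 1 and 0 to 223 and 203 counts, while TTN-AS1 stays between 533 and 693 counts in all 4 libraries.

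The 4 genes higher in Dox are long. TTN, NEB and NEBL span 304814, 249152 and 394215 bases and MYPN spans 105901, while of the other 6 members MYOM1, at 153302 bases, is the only one above 100000. Of the 3012 tested genes that span at least 100000 bases, 785 (26.1%) rose and 451 (15%) fell in Dox by edgeR. Among all genes tested, 16.5% rose and 13.8% fell. Whether span bears on the rise of the 4 members was not tested. This length limit was chosen after the spans of the members were seen.

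A list of 59 other sarcomere genes was drawn up with earlier results of these data known, leaving out the 10 members. Of these 59 genes, 23 could be tested. By edgeR, 3 rose, 11 fell and 9 did not pass, where 16.5% of all tested genes rose and 13.8% fell, and the median log2 fold change was -0.33 against 0.00 for all genes tested. In the thin filament 1 gene rose and 4 fell of 8 tested, and in the Z-disc 2 rose and 5 fell of 11. Among these falls are TNNT2 (14 and 29 counts in control, 4 and 2 in Dox) and DES (56 and 48 in control, 5 and 14 in Dox). Neither would have passed the filter on low counts without the control libraries, so their calls lean on the filter. ACTC1, cardiac alpha-actin, had 274 and 339 counts in control and 42 and 43 in Dox (log2 fold change -2.84, SE 0.16, edgeR adjusted p = 0.000164). MYOZ1, a Z-disc protein that binds calcineurin, had 253 and 298 counts in control and 52 and 49 in Dox (log2 fold change -2.43, SE 0.16, edgeR adjusted p = 0.00026). Its relative MYOZ2 moved the other way, with 10 and 6 counts in control and 42 and 45 in Dox (log2 fold change 2.43, SE 0.35, edgeR adjusted p = 0.00427). MYOZ2 would not have passed the filter on low counts without the Dox libraries, so its call leans on the filter.

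Of the remaining sarcomere genes, FLNC, the muscle filamin, rose by 0.81 (SE 0.17) and TPM3, a tropomyosin also used outside muscle, by 0.28 (SE 0.07). The tropomyosin TPM1 fell by 0.55 (SE 0.08) and the small heat shock protein CRYAB, a desmin chaperone, fell by 0.65 (SE 0.08). Of the 18 thick filament genes listed, 16 could not be tested, and the 2 that were tested fell. MYH1, a fast myosin heavy chain and the chromosomal neighbour of MYH2, fell by 2.17 (SE 0.38). The light chain MYL3 fell by 1.25 (SE 0.31). MYH1 passed the filter on low counts only through the control libraries, so its call leans on the filter. TPM3 did not pass without control replicate 1 (0.28) or control replicate 2 (0.27), and MYL3 did not pass without control replicate 2 (-0.91). By DESeq2 neither MYH1 (-2.21) nor MYL3 (-1.26) passed. With control replicate 2 left out, 7 genes of this list fell, and with Dox replicate 2 left out 6 rose.

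Of the sarcomere genes below the filter, 32 had at least 1 count, and 10 of these were at 0 in both controls and seen in both Dox libraries, while 0 showed the reverse. The same held for 21.6% of the 4067 protein-coding genes below the filter, and the reverse for 0.934%. Over all 14300 genes below the filter with a count, the shares were 11.8% and 1.84%. Genes seen in Dox alone thus outnumbered the reverse among genes of low count, while the total counts of the Dox libraries, 42880657 and 43429401, lay between those of the controls.

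Titin and nebulin have partners that bind, regulate or turn them over, among them proteases, ubiquitin ligases and mechanosensors. Of 18 such partner genes, 11 could be tested. The test by edgeR called 4 higher and 2 lower, against 16.5% and 13.8% of all genes tested, 5 did not pass, and the median of the 11 was 0.25 on the log2 scale. TRIM55, a ubiquitin ligase that associates with titin and microtubules, had 75 and 86 counts in control and 327 and 360 in Dox (log2 fold change 2.10, SE 0.14, edgeR adjusted p = 0.000261). ANKRD1, a stretch-responsive protein that binds titin and myopalladin, had 210 and 218 counts in control and 463 and 438 in Dox (log2 fold change 1.08, SE 0.12, edgeR adjusted p = 0.00175). The LIM protein FHL1 fell by 0.53 (SE 0.08) and the methyltransferase SMYD2 fell by 0.31 (SE 0.09). FHL1 did not pass without control replicate 1 (-0.53), nor SMYD2 without control replicate 1 (-0.31) or control replicate 2 (-0.32) or by DESeq2 (-0.32), and without control replicate 1 edgeR called 2 rises and 0 falls in the list, with 1 fall at an unadjusted p under 0.05. RBM20, the splicing factor that sets titin isoforms in heart, was named after its values were seen. It had 0 and 0 counts in control and 12 and 3 in Dox and was not tested.

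Among the factors that switch on muscle genes, MYOD1, MYF5 and MYOG, the myogenic factors, and MYMK, the myoblast fusion protein, were at 0 in all 4 libraries. Of 18 regulators on the list, 11 could be tested, with 3 called higher and 3 lower by edgeR (16.5% and 13.8% of all genes tested), 5 not passing and a median of -0.08 on the log2 scale. MRTFB, a coactivator of serum response factor, rose by 0.55 (SE 0.11) and the MEF2 family member MEF2D by 0.41 (SE 0.08). TEAD4, a partner of the coactivator YAP, fell by 0.63 (SE 0.15). Without control replicate 1 or control replicate 2 in turn, edgeR called 0 and 0 of these genes higher and 1 and 1 lower, against 3 and 1 higher at an unadjusted p under 0.05. MRTFB was then at 0.49 and 0.58, MEF2D at 0.46 and 0.33 and TEAD4 at -0.61 and -0.67.

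Markers of other cell types were read beside these genes. Of 10 skeletal muscle markers 4 were at 0 in all libraries, and their summed level was 1.44 and 1.13 CPM in control and 0.351 and 0.507 CPM in Dox. Most of the control sum was desmin (DES, also among the smooth muscle markers), at 1.34 and 1.02 CPM in control and 0.117 and 0.309 CPM in Dox. The other 9 summed to 0.0958 and 0.107 CPM in control and 0.234 and 0.198 CPM in Dox. Of 8 cardiac markers NKX2-5, NPPA and MYL2 were at 0 in all libraries, and the sums of the 8 lay between 0.309 and 0.725 CPM. The only cardiac marker tested, TNNT2, was called lower, and its call leans on the filter on low counts. RYR2 was not tested and had 0 and 3 counts in control and 16 and 9 in Dox. Of 8 smooth muscle markers 1 rose and 6 fell, against 16.5% and 13.8% of all genes tested. The marker that rose was MYOCD, which is also on the regulator list. The falls included DES, whose call leans on the filter on low counts. The 8 summed to 2495 and 2564 CPM in control and 1017 and 1261 CPM in Dox. TAGLN was the largest part, at 1420 and 1477 CPM in control and 694 and 892 CPM in Dox. The 10 fibroblast markers were all measured, with 4 called higher and 3 lower. Their sums were 28680 and 28260 CPM in control and 20730 and 25360 CPM in Dox. The collagen gene COL1A2 was the largest part, at 15420 and 15282 CPM in control and 10485 and 13349 CPM in Dox, and did not pass the test. The fibroblast markers called higher were DCN, LUM, THY1 and S100A4, and those called lower were COL3A1, PDGFRA and PDGFRB. Immune markers summed to 0.503 and 0.597 CPM in control and 2.55 and 2.51 CPM in Dox, of which the leukocyte phosphatase PTPRC made 2.10 and 1.83 CPM, with CD3E at 0. Endothelial markers summed to 0.0958 and 0.171 CPM in control and 0.608 and 0.639 CPM in Dox. Keratinocyte markers summed to between 10.2 and 12.7 CPM, with KRT5 and KRT1 at 0. Nearly all of this was KRT10, at 9.85 and 9.94 CPM in control and 12.3 and 10.6 CPM in Dox. The part of the immune and endothelial markers in the titin and nebulin values was not tested.

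The 5 genes with the profile most like that of TTN were CXCL8, CLDN11, CLDN1, GABBR2 and CYP7B1, by Euclidean distance over the 4 libraries between values of log2(CPM + 0.5) centred on the control mean, over the 13396 genes whose mean reached 1 CPM. The distances ran from 0.109 for CXCL8 to 0.559 for CYP7B1. CXCL8, a neutrophil-attracting chemokine, had 38 and 41 counts in control and 602 and 569 in Dox. CLDN11 and CLDN1 encode tight junction proteins, with 37 and 51 and with 55 and 65 counts in control, and 614 and 624 and 1037 and 803 counts in Dox. On this scale TTN stood at 3.48 and 3.28 in Dox, and the offset of 0.5 compresses the change of a gene as rare in control as titin.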

How the data were processed

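The members and the gene lists were chosen with earlier results of these data known. The submitters' processing notes name the build hg38 and the tools RSEM, STAR, cutadapt and Picard. Versions and annotation: not given in the sources used here. The deposited expected counts, named so per the file headers, are estimated reads per gene. The deposited TPM values and the deposited FPKM values, named so per the file headers, are scaled by effective length.

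Expected counts were rounded, and the copies of 45 pseudoautosomal genes were added to the first copy. Genes were kept by edgeR's filterByExpr (minimum count 10, minimum total 15), scaled by TMM and tested by the quasi-likelihood test with group as the only term and Benjamini-Hochberg adjustment at 0.05. The standard error is the fold change divided by the square root of F. Counting intervals are exact conditional binomial. Of the identifiers, 99.5% matched GENCODE 29 (GRCh38, 1-based); promoters are from RefSeq. Replicates differed by more than sampling noise (chi-square per degree of freedom 2.4 in control and 60.5 in Dox). The fit was tested on simulated data. Named genes were the members, the 2 smallest adjusted p per direction of each list, genes overlapping a member and the 5 profiles nearest to TTN. Others were named after their values were seen, and some genes that the rule names are not reported here. Alternatives were other scalings, filters, tests and pseudocounts, a GC-trend offset, a replicate block and leaving out each library. Software: Python 3.11.15 and R 4.3.3, with DESeq2 1.42.0, limma 3.58.1 and edgeR 4.0.16.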

Additional observations from a re-analysis of the deposited data

How the results depend on the processing

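The genes TTN, NEB, NEBL and MYPN were higher in Dox, and MYH2, MYH3, LDB3 and MYOM1 lower, under each alternative that gave a value. NEBL gave none at a minimum count of 30 or without Dox replicate 2. TCAP was at 1.02 without Dox replicate 1 and turned to -0.68 without Dox replicate 2; the cause was not tested. Counts of genes that rose and fell, given in that order for all genes, other sarcomere genes, titin and nebulin partners and muscle regulators, were 789 and 483, 1 and 5, 2 and 0, and 0 and 0 with glmTreat at 1.5-fold. They were 594 and 198, 1 and 4, 1 and 0, and 0 and 0 with limma on log2(TPM + 1), and 635 and 198, 1 and 4, 1 and 0, and 0 and 0 with limma on log2(TPM + 0.1), where the TTN difference was 0.49 because its TPM lies under the pseudocount. At an unadjusted p under 0.05 the partner genes that fell were still 0 under these 3 settings, and the regulators 0 higher and 1 lower. With the GC-trend offset 4842 genes fell. With no filter 7 other sarcomere and 7 partner genes rose. With library totals only, a minimum count of 30 and DESeq2, 1, 1 and 1 partner genes fell. Leaving out a library in turn gave 1448 to 4617 rises and 1077 to 5045 falls over all genes, 2 to 6 and 7 to 14 among other sarcomere genes, 2 to 6 and 0 to 2 among partners, and 0 to 4 and 1 to 4 among regulators. Of the other named list genes, ACTC1, MYOZ1, MYOZ2 and TRIM55 passed under each alternative that gave a value, and the others lost the call under at least 1. The median of all tested genes was 0.06 and 0.13 on the TPM scales. Same-numbered libraries hardly deviated together, with a correlation of 0.0421. The labels do not say that a number marks a pair, so the samples share only a number. With the replicate block 2960 genes rose and 2503 fell, and 3 and 13 other sarcomere, 5 and 2 partner and 3 and 3 regulator genes. The control counts of 1 and 0 for TTN and of 0 and 1 for NEBL limit the precision of their ratios.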
